A study of Homo sapiens with 12 samples.

Results

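The MCM genes analysed here were the 8 members listed by symbol in the authors' differential expression table, MCM2, MCM3, MCM4, MCM5, MCM6, MCM7, MCM8 and MCM10, chosen by name from 19460 genes with RNA values. T-47D, a long-established human line of oestrogen receptor positive breast cancer, was used as wild type. The cells had received 1 µM palbociclib, which blocks the cell cycle kinases CDK4 and CDK6, or its solvent DMSO, for 24 h. Poly(A) RNA sequencing and ATAC-seq, which reads how open chromatin is to the Tn5 transposase, each covered 3 biological replicates per treatment, and the ATAC control medium held 0.1% DMSO. The data are 1 line at 1 dose and 1 time. In such bulk samples, fewer cells in S phase and less RNA per cell cannot be told apart.

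MCM2 to MCM7 form a ring of related subunits that is loaded onto replication origins before S phase and becomes the motor of the replicative helicase once CDC45 and the GINS complex join it. MCM10 is not a ring subunit but is needed to activate the loaded helicase, and MCM8 works with MCM9 in a separate helicase linked to recombination repair. The genes for MCM2 to MCM7 are textbook targets of E2F transcription factors, which the retinoblastoma protein restrains until CDK4 and CDK6 phosphorylate it.

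The stretch around the annotated start of a gene is shown for 4 of the ring subunits and for MCM10, because all of these genes fell and because their starts differ in E2F-type letters. The RefSeq promoter table on GRCh38.p14 held a window at the outermost start of 6 members, MCM2, MCM3, MCM6, MCM7, MCM8 and MCM10. Each line gives 110 bases before the start and the first 15 transcribed bases, in the direction of the gene, with capitals for the letters TTTCCCGC, TTTCGCGC, TTTGCCGC or TTTGGCGC on either strand.
MCM2: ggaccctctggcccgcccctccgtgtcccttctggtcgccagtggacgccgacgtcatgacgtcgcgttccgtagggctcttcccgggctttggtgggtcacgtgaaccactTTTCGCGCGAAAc
MCM3: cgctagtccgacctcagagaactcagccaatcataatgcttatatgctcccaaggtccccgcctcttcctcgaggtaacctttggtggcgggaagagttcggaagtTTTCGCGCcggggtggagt
MCM6: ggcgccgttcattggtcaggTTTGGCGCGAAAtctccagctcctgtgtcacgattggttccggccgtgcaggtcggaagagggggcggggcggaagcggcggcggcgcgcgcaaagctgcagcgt
MCM7: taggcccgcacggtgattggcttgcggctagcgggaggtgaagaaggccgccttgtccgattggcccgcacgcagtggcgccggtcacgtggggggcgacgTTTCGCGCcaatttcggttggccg
MCM10: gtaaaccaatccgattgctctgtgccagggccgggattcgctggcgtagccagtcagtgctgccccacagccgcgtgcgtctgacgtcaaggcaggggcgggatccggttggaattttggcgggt

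These windows are chr3:127598301-127598425 on the plus strand for MCM2, chr6:52284728-52284852 on the minus strand for MCM3 and chr2:135876429-135876553 on the minus strand for MCM6. For MCM7 the window is chr7:100101383-100101507 on the minus strand, and for MCM10 it is chr10:13161448-13161572 on the plus strand. Over the full 300-base windows, from 250 bases before the start to 50 after, at least 1 of the 4 spellings was present in 5 of the 6 members and in 3.31% of all 35116 promoter windows of the table. Counting the first transcribed base as 1, the MCM2 match began at base 3 and overlapped its own reverse complement, which began at base 7. MCM3 had a match that began at -4, across the start, and another at -174. MCM6 had overlapping pairs that began at -152 and -148 and at -90 and -86. MCM7 had matches that began at -9 and -187, and MCM8 had 1 that began at 27, outside the stretch shown for the other genes. MCM10 had none of the 4 spellings in its window. With a final G in place of the final C, TTTGGCGG began at base 6 of MCM10, a spelling added after the window had been read, and at least 1 of the spellings with either ending was present in all 6 of these members and in 6.19% of all windows. The letters CCAAT, read on either strand, were present in 5 of the 6 members, all but MCM2, and in 34.6% of all windows. A match is only a description of the letters, and binding was not measured.

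The depth behind these values can be read from the deposited tables. The authors' mean normalized count of the members ran from 2567 for MCM5 to 16929 for MCM4. Reads in the authors' skipped-exon table summed to 52.2 to 75.4 M per RNA library, and counts in ATAC peaks summed to 12.8 to 18.3 M per library. All 8 luminal epithelial markers fixed for the check were expressed, with a summed level of 5419 to 5939 FPKM in DMSO and 7312 to 8084 FPKM in palbociclib, and ESR1, the oestrogen receptor, was at 41.9 to 49.95 FPKM. Of 3 basal markers only TP63 had values, at no more than 0.113 FPKM. Of 8 fibroblast, endothelial and leukocyte markers 3 had values: COL1A1 was at 23.1 to 26.0 FPKM in both groups, while COL1A2 and CD14 reached 0.469 and 0.368 FPKM. The other basal, fibroblast, endothelial and leukocyte markers were looked up by symbol and had no RNA values. The higher sum was carried mostly by the keratins KRT8, KRT18 and KRT19. PGR was also higher, at 80.4 to 83.6 FPKM in DMSO and 120 to 130 FPKM in palbociclib. GATA3 was at 385 to 397 and 461 to 468 FPKM, and FOXA1 at 150 to 159 and 169 to 171 FPKM. EPCAM was at 185 to 201 FPKM in DMSO and 167 to 189 FPKM in palbociclib. The part of these marker levels in the MCM results was not tested.

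All 8 MCM genes were lower in palbociclib, and in each of them every palbociclib library was below every DMSO library. RNA values are FPKM, read fragments scaled by transcript length and library depth, which can be set side by side between genes. Changes are differences of log2(FPKM + 1) with their standard error, called at an adjusted p under 0.05 in limma with Benjamini-Hochberg adjustment over 15869 genes. In that comparison 22.9% of all genes tested were called lower and 20.9% higher, 3.04% were called lower by at least 1 log2, and 28.2% had all palbociclib libraries below all DMSO libraries. The 8 members all fell by at least 1 log2, and their median change was -2.40 against 0.0023 over all genes tested. The calls over all genes were 3628 lower and 3312 higher, and quantile normalization turned that split to 2856 lower and 4588 higher without ending the call of any member.

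MCM4 (ENSG00000104738, chr8:47960941-47978160, plus strand), a ring subunit, was the most abundant member. Its level was 142, 126 and 137 FPKM in DMSO replicates 1 to 3 and 22.6, 23.03 and 23.9 FPKM in palbociclib replicates 1 to 3. The groups were far apart, and the mean fell from 135 ± 8.33 to 23.2 ± 0.695 FPKM (SD, n = 3), a log2 change of -2.49 ± 0.0487 (SE; limma adjusted p = 2.5e-09).

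MCM3 (ENSG00000112118, chr6:52264015-52284742, minus strand), another ring subunit, read 80.8, 79.0 and 79.0 FPKM in DMSO and 15.4, 15.2 and 14.9 FPKM in palbociclib. The replicates of each group lay close together, with SDs of 1.03 and 0.263 FPKM, and the change was -2.32 ± 0.0330 log2 (limma adjusted p = 5.5e-10). MCM7 (ENSG00000166508, chr7:100092728-100101397, minus strand), the ring subunit whose gene also hosts the microRNAs miR-25, miR-93 and miR-106b, read 63.9, 63.5 and 63.9 FPKM in DMSO and 19.3, 18.5 and 18.6 FPKM in palbociclib. It kept 29.5% of its DMSO mean, the highest share of the 8 members, with a change of -1.71 ± 0.0338 log2 (limma adjusted p = 2.7e-09).

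MCM2 (ENSG00000073111, chr3:127598411-127622436, plus strand), the ring subunit that also binds histones, was at 44.4, 44.2 and 42.7 FPKM in DMSO. In palbociclib it was at 6.69, 6.998 and 6.53 FPKM, which is 15.4% of the DMSO mean and a change of -2.53 ± 0.0421 log2 (limma adjusted p = 1.0e-09). MCM6 (ENSG00000076003, chr2:135839626-135876443, minus strand) was at 32.3, 30.8 and 31.4 FPKM in DMSO and 6.32, 6.49 and 6.48 FPKM in palbociclib. Its palbociclib libraries were the tightest of the ring subunits, with an SD of 0.0933 FPKM, and its change was -2.13 ± 0.0413 log2 (limma adjusted p = 2.4e-09). MCM5 (ENSG00000100297, chr22:35400140-35455031, plus strand) was at 26.2, 30.6 and 27.8 FPKM in DMSO and 3.84, 4.00 and 3.29 FPKM in palbociclib. It had the largest fall of the ring subunits, with 13.2% of its DMSO mean left and a change of -2.63 ± 0.0768 log2 (limma adjusted p = 3.1e-08).

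MCM8 (ENSG00000125885, chr20:5950652-5998977, plus strand), which is outside the ring, was at 18.9, 18.5 and 18.2 FPKM in DMSO and 4.85, 4.85 and 4.93 FPKM in palbociclib. Its mean fell from 18.5 ± 0.367 to 4.88 ± 0.0471 FPKM, a change of -1.73 ± 0.0448 log2 (limma adjusted p = 1.4e-08). MCM10 (ENSG00000065328, chr10:13161558-13211110, plus strand), the activation factor, was at 18.2, 16.3 and 16.5 FPKM in DMSO and at 0.681, 0.647 and 0.616 FPKM in palbociclib. Only 3.81% of its DMSO mean was left, a 26.2-fold difference of means, and the change of -3.45 ± 0.0642 log2 (limma adjusted p = 2.0e-09) ranked 21 among the falls of 15869 genes. The other members ranked from 107 (MCM5) to 253 (MCM7). The added 1 FPKM shrinks the change of MCM10 most, since its palbociclib level is below 1, and with 0.1 FPKM added the change was -4.51 log2. In the authors' deposited table, which models normalized counts, the log2 fold change was -4.71 for MCM10, between -2.93 (MCM5) and -1.76 (MCM7) for the ring subunits and -1.93 for MCM8. There 20.3% of 19080 genes were lower at an adjusted p under 0.05, all 8 members among them.

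**Figure D1:**
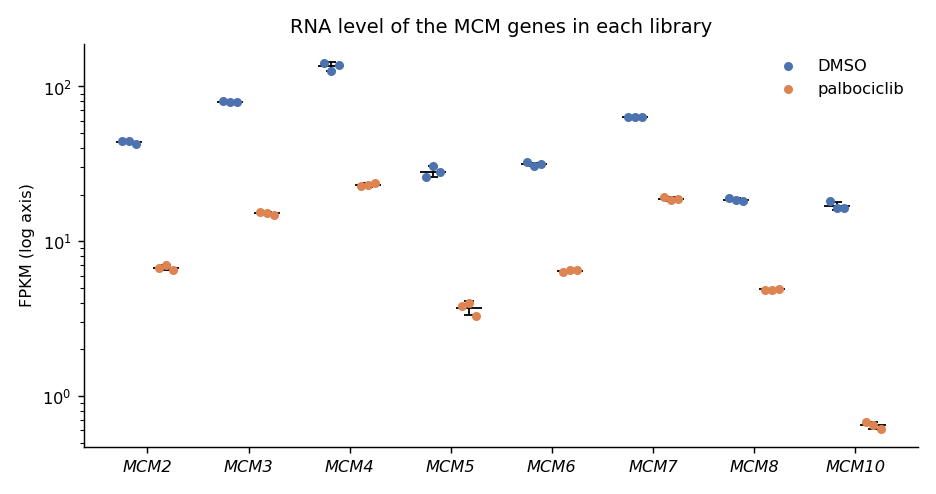
RNA level of each MCM gene in FPKM on a log axis, with 1 point per library (3 DMSO, 3 palbociclib), a black line at the mean and bars of 1 SD. No palbociclib point reaches a DMSO point of the same gene, and MCM10 falls furthest, to 0.616 to 0.681 FPKM.

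The order of the levels changed between the groups. In DMSO it ran MCM4, MCM3, MCM7, MCM2, MCM6, MCM5, MCM8 and MCM10, from 135 down to 17.0 FPKM. No neighbours in this order had overlapping libraries, but MCM6 and MCM5 were parted by only 0.224 FPKM between their closest libraries and MCM8 and MCM10 by 0.0479 FPKM. In palbociclib the order was MCM4, MCM7, MCM3, MCM2, MCM6, MCM8, MCM5 and MCM10, from 23.2 down to 0.648 FPKM. MCM7 thus stood above MCM3, and MCM8 above MCM5. MCM2 and MCM6 differed there by 0.309 FPKM in their means, which is less than the sum of their SDs of 0.332 FPKM.

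In FPKM, the make-up of the ring subunits differed between the groups, with no overlap of libraries in 5 of 6 shares. The shares of a library depend on each other, so a higher share of MCM7 by itself lowers the others. Reads spliced across introns, given below, fell by overlapping ranges of fold in MCM7 and MCM4. The summed level of MCM2 to MCM7 was 389, 374 and 382 FPKM in DMSO and 74.2, 74.2 and 73.7 FPKM in palbociclib, a 5.16-fold difference of means. MCM7 supplied 16.4%, 17.0% and 16.7% of that sum in DMSO and 26.1%, 24.9% and 25.3% in palbociclib, a difference of 8.70 percentage points. MCM4 went from 35.3% ± 1.49 to 31.3% ± 1.04 (SD, n = 3), MCM5 from 7.39% ± 0.737 to 5.01% ± 0.487, and MCM2 from 11.5% ± 0.327 to 9.10% ± 0.298. MCM6 moved least among the shares whose groups did not overlap, from 8.25% ± 0.0448 to 8.69% ± 0.141. The share of MCM3 was 20.9% ± 0.244 and 20.5% ± 0.289, and here the groups overlapped. With 3 libraries against 3, an exact two-sided permutation test cannot give less than p = 0.1, the value of the 5 shares whose groups did not overlap (0.12 after Benjamini-Hochberg adjustment over 6 shares), so none passed the threshold.

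**Figure D2:**
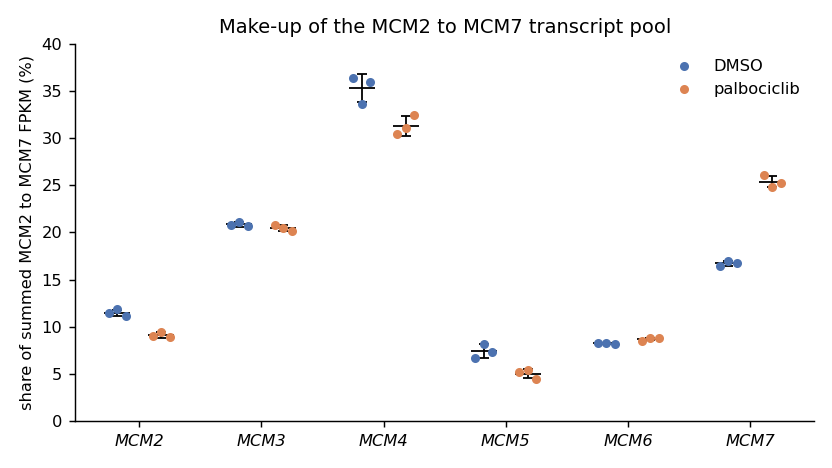
Share of each subunit in the summed FPKM of MCM2 to MCM7, in percent, with 1 point per library, a line at the mean and bars of 1 SD. The MCM7 points move up from between 16.4% and 17.0% to between 24.9% and 26.1%, while those of MCM2, MCM4 and MCM5 move down and those of MCM3 overlap.

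Relative to the ring subunits, MCM8 stood higher in palbociclib than in DMSO and MCM10 stood lower. The log2 ratio of MCM8 to the mean of MCM2 to MCM7 was -1.78 ± 0.0278 in DMSO and -1.34 ± 0.0190 in palbociclib (SD, n = 3), a difference of 0.44. For MCM10 the ratio was -1.91 ± 0.0607 in DMSO and -4.25 ± 0.0684 in palbociclib, a difference of -2.35. Neither pair of groups overlapped, and both exact two-sided permutation tests gave the smallest value possible, p = 0.1 (0.1 after adjustment over 2 ratios). With 1 FPKM added to both terms, the MCM10 difference was -1.17.

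The partners that load, assemble and fire the helicase were read from a list of 23 origin licensing and helicase assembly genes. In the same limma test 20 of the 23 were lower and 0 were higher, beside 22.9% lower and 20.9% higher over all genes tested. The median change of the list was -1.96 log2. CDC45, which completes the helicase with GINS, was at 17.9, 18.3 and 16.4 FPKM in DMSO and 1.00, 0.951 and 1.48 FPKM in palbociclib (-3.12 ± 0.0975 log2, limma adjusted p = 4.7e-08). All 4 GINS genes fell: GINS2 changed by -2.81, GINS4 by -2.35, GINS1 by -2.32 and GINS3 by -1.38 on the log2 scale. The 5 helicase partners had a median of -2.35 log2, beside -2.40 for the 6 ring subunits.

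Among the loaders, CDC6 was at 46.4 ± 1.36 FPKM in DMSO and 4.69 ± 0.154 FPKM in palbociclib, a change of -3.06 log2. CDT1, which brings the ring to origins, changed by -2.72 log2, and GMNN, the gene of its inhibitor geminin, by -2.16 log2. CDC7 and DBF4 form the kinase that phosphorylates the loaded ring, and they changed by -1.14 and -1.96 log2. The origin recognition complex was split: ORC1, ORC6 and ORC3 were called lower, and ORC2, ORC4 and ORC5 were not. ORC1 went from 4.94 ± 0.271 to 0.457 ± 0.0506 FPKM (-2.03 log2). The added 1 FPKM shrinks this change too, which was -3.18 log2 with 0.1 FPKM added. By contrast, ORC2 was at 14.3, 12.7 and 17.6 FPKM in DMSO and 16.2, 12.4 and 15.2 FPKM in palbociclib, with overlapping groups (-0.018 ± 0.123 log2, limma adjusted p = 0.92).

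MCM9 and other relatives outside the 8 members did not all move with them. MCMBP, which binds MCM complexes, was at 19.8 ± 0.607 FPKM in DMSO and 9.80 ± 0.129 FPKM in palbociclib (-0.95 ± 0.0428 log2, limma adjusted p = 6.0e-07). HROB, which works with the MCM8 and MCM9 helicase, was at 6.74 ± 0.687 FPKM in DMSO and 0.788 ± 0.146 FPKM in palbociclib (-2.11 ± 0.0934 log2, limma adjusted p = 5.1e-07; -2.95 log2 with 0.1 FPKM added). MCM9, the partner of MCM8, was at 6.55, 6.21 and 7.51 FPKM in DMSO and 5.68, 5.85 and 6.17 FPKM in palbociclib. The MCM9 groups did not overlap, but the change of -0.17 ± 0.0732 log2 was not called (limma adjusted p = 0.10). MCM3AP, named for its binding to MCM3, and MCMDC2, a gene with an MCM domain, were not called either, at 0.084 ± 0.0526 and 0.13 ± 0.0894 log2.

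**Figure D3:**
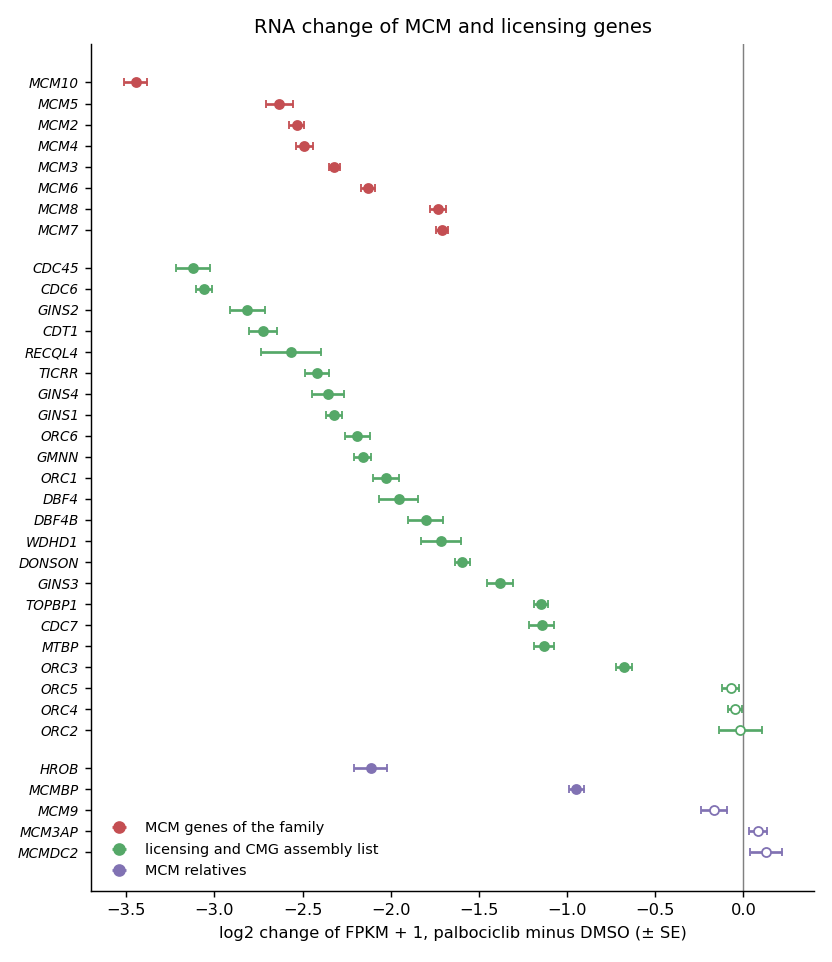
Difference of log2(FPKM + 1), palbociclib minus DMSO, with bars of 1 SE, for the 8 members, the 23 licensing and assembly genes and 5 relatives. Filled points passed the limma threshold, and the open points near 0 are ORC2, ORC4, ORC5, MCM9, MCM3AP and MCMDC2.

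The genes whose profile over the 6 RNA libraries lay nearest to the mean of MCM2 to MCM7 were sought among 9823 genes with at least 5 FPKM in DMSO. The measure was the Euclidean distance of log2(FPKM + 1) values, each relative to the DMSO mean of its gene. GINS1, a helicase partner, was nearest at a distance of 0.119, with 28.5, 29.3 and 28.3 FPKM in DMSO and 4.78, 4.86 and 5.20 FPKM in palbociclib. The next were the histone variant gene H2AX (0.131), the microtubule regulator gene STMN1 (0.135), the kinetochore gene KNSTRN (0.142) and the integrin gene ITGA2B (0.151). The likeness is on the log2(FPKM + 1) scale only: ITGA2B went from 5.04 to 0.239 FPKM, a larger fold than that of the ring subunits, which the added 1 FPKM brings close to theirs. The libraries fall into only 2 groups, so the ranking follows mostly the size of the change on that scale.

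In 4 of the 8 members another gene starts within 1 kb on the opposite strand, so that the pair could share a promoter region. TRMT6, a tRNA methyltransferase subunit gene that starts 119 bases from MCM8, was at 15.5, 14.9 and 15.6 FPKM in DMSO and 11.5, 11.2 and 10.6 FPKM in palbociclib (-0.43 ± 0.0485 log2, limma adjusted p = 0.00017). PRKDC, the DNA-dependent protein kinase gene that starts 805 bases from MCM4, had a mean of 92.8 ± 4.68 FPKM in DMSO and 48.3 ± 3.34 FPKM in palbociclib (-0.93 ± 0.0557 log2, limma adjusted p = 3.8e-06). The MCM neighbour of each changed by -1.73 and -2.49 log2, and the differences within the pairs were not tested. TPRA1, 180 bases from MCM2, was at 9.86, 10.4 and 9.37 FPKM in DMSO and 10.2, 11.2 and 11.4 FPKM in palbociclib, and it was not called (0.13 ± 0.0601 log2, limma adjusted p = 0.11). It was called higher after quantile normalization, at 0.24 log2 (adjusted p = 0.012). AP4M1, 246 bases from MCM7, was not called either (-0.0078 ± 0.0591 log2, limma adjusted p = 0.93).

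Chromatin was less open over the start of 4 MCM genes. A peak lay over the start of MCM2, MCM3, MCM5, MCM8 and MCM10, that is of 5 of the 8 members, beside 43.2% of 13163 expressed genes with a peak within 1 kb. For MCM7, MCM4 and MCM6 the nearest peak of the authors' list was 11.975, 18.2 and 78.5 kb away. Of the 5 peaks, 4 were called lower in edgeR's quasi-likelihood test with Benjamini-Hochberg adjustment over 38121 peaks, in which 6.46% of all peaks were called lower and 5.41% higher, and 11.4% of 7248 peaks near an annotated start were called lower. In the same 4 all palbociclib libraries were below all DMSO libraries, as in 23.6% of peaks near a start. The counts with TMM scaling were 2464 lower and 2061 higher, and scaling by library totals alone gave 2030 lower and 2573 higher.

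The MCM5 peak (chr22:35399547-35400547) held 49.2, 47.7 and 58.1 CPM (counts scaled by library depth and TMM factors) in DMSO and 41.5, 35.7 and 40.3 in palbociclib, a change of -0.40 ± 0.0736 log2 (edgeR adjusted p = 8.1e-05). The MCM8 peak (chr20:5950177-5950975) held 79.3, 81.9 and 78.2 CPM in DMSO and 61.0, 67.5 and 62.3 in palbociclib, a change of -0.33 ± 0.0586 log2 (edgeR adjusted p = 3.7e-05). Over MCM2 (chr3:127597957-127598747) the values were 90.7, 78.5 and 84.0 in DMSO and 67.7, 65.7 and 70.4 in palbociclib, a change of -0.31 ± 0.0587 log2 (edgeR adjusted p = 0.00011). In these 3 peaks no palbociclib library reached the lowest DMSO library.

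The MCM10 peak (chr10:13161109-13161972) held 135, 122.6 and 132 CPM in DMSO and 107, 110 and 106 in palbociclib, a change of -0.27 ± 0.0506 log2 (edgeR adjusted p = 7.4e-05). The gene with the largest fall in RNA thus had the smallest of the 4 called changes in accessibility, and differences between peaks were not tested. The MCM3 peak (chr6:52284489-52285249) was the most open of the 5, with 168, 158 and 166 CPM in DMSO and 143, 163 and 144 in palbociclib. Palbociclib replicate 2 lay inside the DMSO range, and the change of -0.13 ± 0.0491 log2 was not called (edgeR adjusted p = 0.079). Without palbociclib replicate 2 it was -0.19 log2 and was called (edgeR adjusted p = 0.010). The median change of peaks near a start was -0.046 log2, and 3.20% of those peaks had a change as low as that of MCM5, 5.13% as low as MCM8, 6.08% as low as MCM2, 8.10% as low as MCM10 and 25.6% as low as MCM3. The MCM2 and MCM8 peaks also cover the starts of TPRA1 and TRMT6, so they cannot be assigned to 1 gene of the pair.

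The other accessible sites of the family were 2 peaks inside MCM5, 30.6 and 41.6 kb from its start, in the search from 10 kb upstream to the gene end. They held 29.3 ± 2.45 and 7.67 ± 0.652 CPM in DMSO and 31.4 ± 2.25 and 8.25 ± 0.281 in palbociclib. Neither was called, with changes of 0.11 ± 0.0830 and 0.099 ± 0.149 log2 (edgeR adjusted p = 0.44 and 0.73) and overlapping groups.

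**Figure D4:**
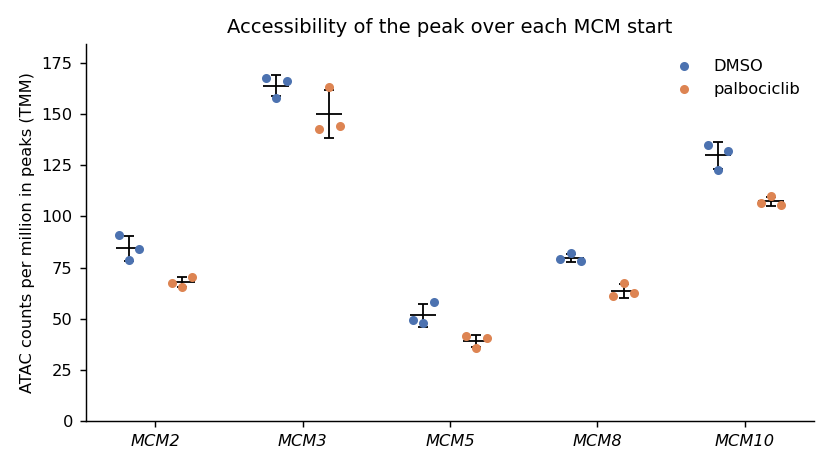
TMM-scaled ATAC counts (CPM) for the peak over the start of 5 MCM genes, with 1 point per library, a line at the mean and bars of 1 SD. The groups are apart in MCM2, MCM5, MCM8 and MCM10 and overlap in MCM3, where 1 palbociclib library reads 163.

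Splicing changes were called in 1 member. The authors' tables held 54 events of the 8 genes, 35 of them cassette exons, and 15 events had enough reads of both forms to be tested. In edgeR's quasi-likelihood test with adjustment over all events of a type, 2 of these 15 were called, and both were introns of MCM7 with higher retention. Of 4565 tested retained introns 1.1% were called higher, and 0.35% of events of all 5 types were called in either direction. MCM2 and MCM5 had 2 events each, and none was tested because the rarer form made up no more than 2.09% of reads.

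The intron of 185 bases at chr7:100099404-100099588 had an inclusion level, the share of transcripts that keep it, of 0.099 ± 0.0155 in DMSO and 0.201 ± 0.00737 in palbociclib (SD, n = 3). Per library the level was 0.084, 0.115 and 0.098 in DMSO and 0.193, 0.204 and 0.207 in palbociclib, with no overlap, and the edgeR adjusted p was 6.9e-05. The neighbouring intron of 75 bases at chr7:100099204-100099278, which was picked out after its values were seen, went from 0.101 ± 0.0114 to 0.195 ± 0.00987 (edgeR adjusted p = 0.00045). In the authors' deposited table their FDR was 7.0e-09 and 1.4e-06, where 2.65% of 8551 retained introns had more retention at an FDR under 0.05. The introns begin 1809 and 2119 bases into the gene and overlap no other RefSeq gene, and the nearest of the microRNA genes hosted by MCM7, MIR106B, lies 5129 bases further on.

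Both forms of these MCM7 transcripts were fewer in palbociclib. Reads spliced across the 185-base intron numbered 619, 785 and 575 in DMSO and 159, 155 and 160 in palbociclib, and reads that kept it numbered 163, 294 and 179 in DMSO and 109, 114 and 120 in palbociclib. Scaled by each library's total in the skipped-exon table, the spliced form was 4.75-fold lower and the retained form 2.07-fold lower. For the 75-base intron the spliced form was 5.23-fold lower and the retained form 2.43-fold lower. The higher inclusion level thus went with a smaller loss of the retained form, not with more retained reads, and no group pair overlapped (exact two-sided permutation p = 0.1 for each of these 4 comparisons, the smallest possible). The FPKM of MCM7 was 3.39-fold lower, a smaller fall than that of its spliced reads at these introns. In MCM4 the measures stood the other way, with FPKM 5.82-fold lower and spliced reads 4.69- to 5.07-fold lower at its introns. Spliced reads thus did not set MCM7 apart from MCM4, and the higher MCM7 share is a result in FPKM only. The difference between the measures was not tested.

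Of the 3 MCM4 introns in the tables, 2 were tested and neither was called. The 453-base intron was kept at 0.0357 ± 0.00115 in DMSO and 0.0387 ± 0.00208 in palbociclib, and its 1388-base intron at 0.00633 ± 0.00153 and 0.00567 ± 0.000577 (edgeR adjusted p = 0.86 and 0.80). The third, of 85 bases at chr8:47962860-47962944, had too few reads of the retained form for the test and is given here after its values were seen. Its level was 0.015, 0.016 and 0.016 in DMSO and 0.026, 0.031 and 0.022 in palbociclib, with no overlap, and its spliced form was 5.07-fold lower and its retained form 3.04-fold lower. Without the filter on the rarer form it was not called (edgeR adjusted p = 0.43), and its FDR in the authors' deposited table was 0.18.

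The other events named were the one with the lowest p in each gene. In MCM6 an event listed as an exclusive exon choice (140 against 156 bases) stood at 0.522 ± 0.0223 and 0.483 ± 0.0414. As neighbouring cassette exons both were kept, at 0.996 and 0.997 in DMSO and 1 in palbociclib, so it shows no either-or choice. In MCM3 a 151-base exon stood at 0.114 ± 0.0183 and 0.122 ± 0.0236. In MCM8 a 151-base exon, read next to a 31-base exon, stood at 0.053 ± 0.00625 and 0.0717 ± 0.0266. An event outside that rule reads the same exon next to an exon further upstream. There it stood at 0.910 ± 0.0871 and 0.838 ± 0.281, with a mean of 17.7 reads per palbociclib library. In MCM10 a pair of 3′ splice sites 3 bases apart stood at 0.360 ± 0.0217 and 0.218 ± 0.189, where a mean of only 10.3 reads per palbociclib library was left to measure it. None of the 13 events other than the MCM7 introns was called, and their lowest adjusted p in edgeR was 0.79.

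**Figure D5:**
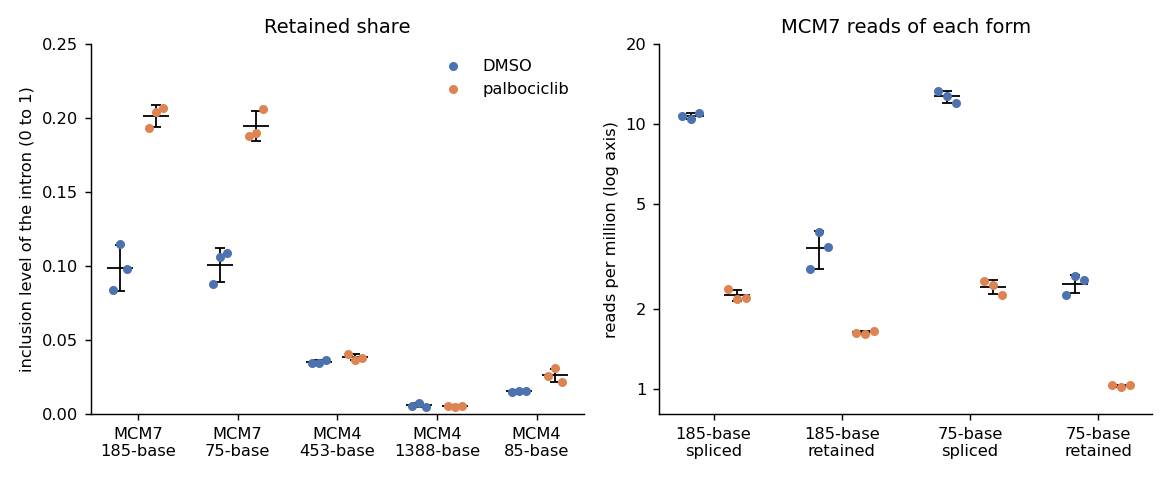
Left, inclusion level of 2 introns of MCM7 and 3 of MCM4 from 0 to 1. Right, reads of the spliced and the retained form of the MCM7 introns as reads scaled by the skipped-exon table total, on a log axis. Points are libraries, lines are means and bars are 1 SD. The 185-base MCM7 intron is kept at 0.193 to 0.207 in palbociclib while both read forms fall, and no MCM4 level exceeds 0.041.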

How the data were processed

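Poly(A) RNA and ATAC libraries of T-47D cells were grouped by treatment from the labels, 3 per group. RNA values are FPKM as deposited by the authors. The authors' differential expression table gives a mean normalized count, a signal value, with log2 fold changes, p-values and a Wald score, per the file headers. The authors' splicing tables (rMATS layout, per the file headers) hold inclusion and skipping read counts in 1 cell per group, inclusion levels as a fraction, and their difference as a score. ATAC values are read counts per peak, made by the authors with featureCounts 2.0.6 on deduplicated alignments over 1 peak set, per the file headers. The build is GRCh38, and fastp 0.23.2, Salmon 1.10.2, STAR 2.7.10b, SAMtools 1.16 and DESeq2 1.44.0 are named for RNA and Bowtie2, MACS3, Picard and featureCounts for ATAC, per the submitters' processing notes. Which tool made the FPKM, and the counting strand, are not given in the sources used here; the ATAC command has no option to count a pair as 1, so mates were taken as separate reads. FPKM depend on the gene length used, and reads shared by overlapping transcripts could be assigned in more than 1 way.

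The members and gene lists were chosen with earlier results of these data known. RNA was tested with limma 3.58.1 (intensity trend) in R 4.3.3 on log2(FPKM + 1) over genes with a mean of at least 0.5 FPKM. Peaks were tested with the quasi-likelihood test of edgeR 4.0.16 after TMM scaling, and peaks with a base within 1 kb of a start were taken as start peaks. Splicing was tested in edgeR on both read forms with a term per library, for events that averaged 20 or more reads per library, 5% or more of them from the rarer form. Adjustment was by Benjamini-Hochberg over all features tested, with a threshold of 0.05. Shares and ratios were tested with SciPy 1.17.1 by exact permutation. Named were all members, their start peaks, neighbours within 1 kb, 12 of the licensing genes (ORC3, ORC4, ORC5 and ORC6 were named after their values were seen), 5 relatives, the 5 nearest profiles and the event with the lowest p in each gene. Further events of MCM4, MCM6, MCM7 and MCM8 were named outside the rule of the lowest p. Gene coordinates and promoter letters came from RefSeq (GRCh38.p14). The tests were tried on simulated data. Alternatives covered pseudocount, filters, scaling, test, replicate block and left-out libraries. Replicates are biological per the labels, and no batch is given.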

Additional observations from a re-analysis of the deposited data

How the results depend on the processing

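All 8 members stayed lower, 20 of 23 licensing genes stayed lower, and both MCM7 introns stayed higher under every alternative run for them, including each left-out library. The number of start peaks called lower was 4, and 5 without palbociclib replicate 2. The count of neighbours called higher was 0 and became 1 (TPRA1) after quantile normalization. Calls over all peaks fell from 4525 to 2514 with DESeq2's Wald test and to 2660 without DMSO replicate 3, 2936 without palbociclib replicate 1. With a replicate block the counts were again 8 members, 20 licensing genes, 4 start peaks and 2 introns. Same-numbered libraries of the treatments had deviations correlated at -0.0051 to 0.106 in RNA and -0.025 to 0.039 in ATAC, so the numbers were not taken to pair them. As differences within same-numbered libraries, shares and ratios had an exact sign-flip p of 0.25, the smallest possible. Without 1 library the MCM7 share gained 8.36 to 8.96 percentage points.

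Sign changes arose only in results that were not called. After quantile normalization AP4M1 was at 0.098, ORC2 at 0.076 and ORC4 and ORC5 at 0.035 log2. With 1 library left out, AP4M1 ran from -0.055 to 0.035 and ORC2 from -0.12 to 0.10 log2. Over left-out libraries the log2 odds of uncalled MCM8 events ran from -0.56 to 0.084 (alternative 5′ site), -0.50 to 0.12 (exclusive exons) and -0.075 to 0.60 (31-base exon). They ran from -0.0037 to 0.51 in MCM4 (alternative 5′ site) and -0.037 to 0.29 in MCM3 (151-base exon). For exons only listed as exclusive they ran from -0.0084 to 0.11 in MCM6 and -0.54 to 1.36 in MCM10. The cause was not tested. With 3 libraries per group exact tests cannot pass 0.05, and MCM10 events had few reads left in palbociclib.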
